A study of Homo sapiens with 6 samples.

Results

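The transcripts of 10 genes, SMAD1, SMAD2, SMAD3, SMAD4, SMAD6, SMAD7, ID1, ID2, ID3 and ID4, were followed in MDA-MB-231 cells exposed to the multi-kinase inhibitor EC-70124. The genes were listed by name and matched by symbol in the probe annotation of the array, and all 10 were found among the 18417 genes measured. MDA-MB-231 is a human cell line long used as a model of triple negative breast cancer (TNBC). It was measured in 3 samples given EC-70124 at 500 nM over 24 h and in 3 control samples that received no drug. Total RNA of the whole culture was hybridised to Affymetrix Human Gene ST arrays, 1 for each sample. The study's methods call the samples independent. They name no vehicle for the control samples, so that the drug and its solvent cannot be told apart, and only this cell line, dose and time were profiled. The values are intensities on a linear scale, the model-based expression index (MBEI) that the authors computed for each probe set.

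SMAD proteins carry the signal of the transforming growth factor beta (TGF-beta) superfamily from the membrane to the nucleus. Receptor kinases phosphorylate the receptor-regulated SMADs, of which SMAD2 and SMAD3 serve TGF-beta and activin, and SMAD1 serves the bone morphogenetic proteins (BMPs). These assemble with the common partner SMAD4 and bind DNA, whereas SMAD6 and SMAD7 are inhibitory SMADs that are themselves induced by the pathway. The ID genes are classical targets of the BMP branch. ID proteins have a helix-loop-helix domain but no basic DNA-binding region, and they hold E proteins and other basic helix-loop-helix (bHLH) factors away from DNA. ID1 and ID3 have been studied in TNBC for their role in the growth of metastases.

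The upstream sequences of the ID genes are shown because these 4 genes of a single family did not change in one direction, and that of SMAD3 because it was the receptor-regulated SMAD that fell. Each line gives, 5′ to 3′, the 250 bases before the gene's start from the RefSeq promoter table (build GRCh38.p14). SMAD3 has 5 starts, and its line is for the start with the lowest coordinate. Capitals mark GGCGCC, a GC-rich element bound by BMP-activated SMADs, CAGAC, which holds the SMAD box, CACGTG, the E-box bound by MYC, the box with the letters CCAAT, and TATAAA, a core promoter element, on either strand.
ID2 promoter, chr2:8681806-8682055, plus strand: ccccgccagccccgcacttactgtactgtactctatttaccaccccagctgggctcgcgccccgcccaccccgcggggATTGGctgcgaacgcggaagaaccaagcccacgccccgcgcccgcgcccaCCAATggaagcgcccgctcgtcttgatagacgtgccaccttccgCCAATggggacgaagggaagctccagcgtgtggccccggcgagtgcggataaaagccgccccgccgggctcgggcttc
ID3 promoter, chr1:23559502-23559751, minus strand: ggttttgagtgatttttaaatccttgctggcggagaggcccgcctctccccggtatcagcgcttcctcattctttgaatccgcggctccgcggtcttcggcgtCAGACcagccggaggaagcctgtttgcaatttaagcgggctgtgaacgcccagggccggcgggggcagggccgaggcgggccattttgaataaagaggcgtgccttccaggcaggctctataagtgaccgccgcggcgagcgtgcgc
ID1 promoter, chr20:31605039-31605288, plus strand: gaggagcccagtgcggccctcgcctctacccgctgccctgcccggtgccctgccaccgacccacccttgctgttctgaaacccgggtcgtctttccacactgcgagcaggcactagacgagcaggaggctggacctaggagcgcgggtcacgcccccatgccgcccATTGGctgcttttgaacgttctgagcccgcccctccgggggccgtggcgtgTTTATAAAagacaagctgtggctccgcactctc
ID4 promoter, chr6:19837120-19837369, plus strand: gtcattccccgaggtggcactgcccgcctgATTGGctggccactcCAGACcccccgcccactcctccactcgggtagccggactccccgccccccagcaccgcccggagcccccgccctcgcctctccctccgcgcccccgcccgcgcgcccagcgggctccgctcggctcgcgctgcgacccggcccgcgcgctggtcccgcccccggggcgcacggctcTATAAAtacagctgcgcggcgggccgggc
SMAD3 promoter, chr15:67065352-67065601, plus strand: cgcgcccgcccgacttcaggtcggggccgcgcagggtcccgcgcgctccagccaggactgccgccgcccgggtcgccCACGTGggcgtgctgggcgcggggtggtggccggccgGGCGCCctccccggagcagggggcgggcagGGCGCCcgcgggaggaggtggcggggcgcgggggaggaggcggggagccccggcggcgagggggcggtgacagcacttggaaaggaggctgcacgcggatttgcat
Motifs were searched on both strands of the 300-base windows, which reach 50 bases past the start, and the 10 genes have 21 such windows because SMAD1 and SMAD3 have 5 starts each, SMAD7 has 3 and SMAD2 has 2. The array does not say which start a transcript used. Sequence further than 250 bases before a start was not searched, so that a motif found for none of the ID genes may still lie further upstream. GGCGCC was found near starts of 4 SMAD genes (SMAD1, SMAD2, SMAD3 and SMAD4) and of none of the ID genes, in 6 of the 21 windows, and 19.2% of all 35116 windows hold it. In the SMAD3 window it begins 136 and 106 bases before the start, with a CACGTG 173 bases before it. CAGAC was found for ID3 (147 bases before the start), ID4 (205 bases), SMAD1, SMAD3 and SMAD7, in 8 of the 21 windows, and is held by 45.3% of all windows. CACGTG was found for SMAD1 and SMAD3, in 2 of the 21 windows, and is in 7.26% of all windows. TGACGT, the core of the cyclic AMP response element, was in none of the 21 windows and is in 7.98% of all windows. CCAAT and TATAAA were added to the search after the sequences had been read. CCAAT, found in 9 of the 21 and in 34.6% of all windows, stood 3 times before ID2 (172, 122 and 78 bases before the start), once before ID1 (84 bases) and once before ID4 (220 bases), and it was near starts of 5 SMAD genes. TATAAA, in 4 of the 21 and in 11.5% of all windows, lay 31 bases before the start of ID1, overlapping its own reverse complement, and 29 bases before that of ID4, and windows of SMAD1 and SMAD7 held it as well. ID2 and ID3, which were both higher in treated cells, shared none of the motifs searched as exact matches. The shorter AGAC within CAGAC was not searched for on its own, and it also stands in the printed ID2 and ID1 sequences. Near matches to TATAAA, such as GATAAAAG before ID2 and CTATAAGT before ID3, were not counted.

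EC-70124 changed 7 of the 10 genes: ID2, ID3, SMAD1 and SMAD2 were up-regulated, and ID1, SMAD3 and SMAD6 were down-regulated. SMAD4, SMAD7 and ID4 did not pass the test. Changes were tested with limma on log2 intensities, 3 treated against 3 control arrays, at a p-value under 0.05 after Benjamini-Hochberg adjustment over the 18417 genes. In this comparison 34.5% of all genes passed, 19.7% as higher and 14.8% as lower. Among the 10 genes 70% passed. Dim genes passed less often: with the 30% dimmest genes left out, 6148 of 12892 genes passed, and 7 of the 9 listed genes that remained. After quantile normalization of the same arrays the split over all genes was 3112 higher and 3527 lower, against 3631 higher and 2722 lower as deposited, and the 10 genes again had 4 higher and 3 lower. The treated and control arrays did not overlap for these 7 genes, against 47.6% of all genes (25.6% with the treated arrays higher and 22% with the treated arrays lower). The median absolute log2 fold change was 0.31 for the 10 genes and 0.14 over all genes. The 10 genes and the lists below were chosen with earlier results of these data known. Their shares beside those of all genes are therefore a description and no test of the family. With 3 arrays against 3, an exact permutation test of any 1 gene is limited to a p of 0.1 or more.

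**Figure D1:**
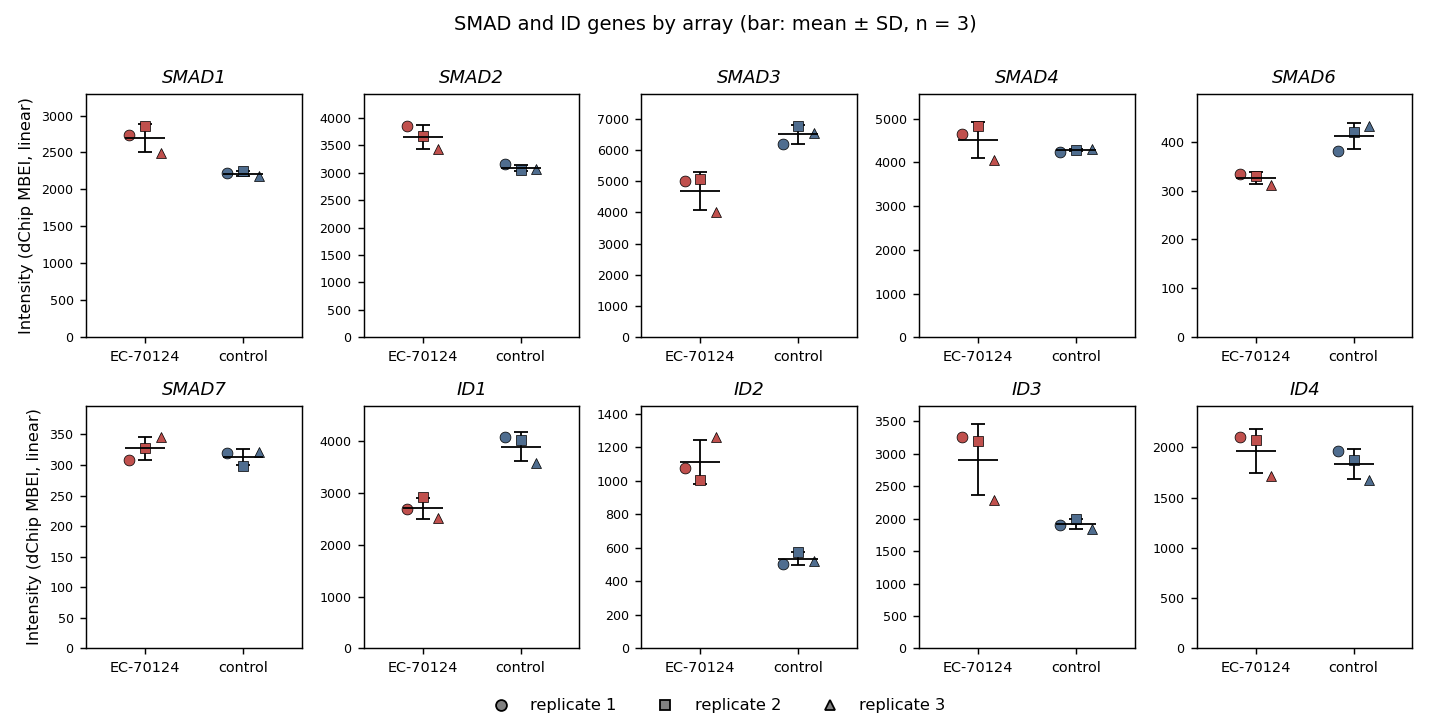
Intensity (linear, y axis) of each of the 10 genes in the 3 EC-70124 arrays (red, left) and the 3 control arrays (blue, right), with the mean and SD as a bar. For ID2 the treated arrays lie between 1003 and 1260 and the control arrays between 505 and 578, whereas for SMAD4, SMAD7 and ID4 the groups overlap.

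ID2 had the largest change of the 10 genes. Its protein, like the other ID proteins, opposes differentiation driven by bHLH factors in many tissues. Its intensity was 1078, 1003 and 1260 in the treated arrays, against 505, 578 and 524 in the control arrays. Every treated array was thus well above every control array, and the mean was 1114 ± 132 in treated cells and 536 ± 37.5 in control cells (SD, n = 3 each). The log2 fold change was 1.05 (standard error 0.09, 95% interval 0.83 to 1.27, adjusted p = 8.53e-05 from limma), a fold of 2.07. ID3 rose as well, with 3254, 3196 and 2279 in the treated arrays, against 1907, 1999 and 1845 in the control arrays. Treated replicate 3 was the lowest of the treated arrays but still above every control array. The log2 fold change of ID3 was 0.58 (standard error 0.13, adjusted p = 0.00878 from limma), and without EC-70124 replicate 3 it was 0.75.

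ID1 moved the other way. Its intensity was 2686, 2914 and 2509 in the treated arrays, against 4073, 4027 and 3567 in the control arrays, so that all treated arrays were lower. The mean was 2703 ± 203 in treated cells and 3889 ± 280.1 in control cells (SD, n = 3 each), with a log2 fold change of -0.52 (standard error 0.08, 95% interval -0.71 to -0.34, adjusted p = 0.00123 from limma). ID4, the ID gene with the most restricted expression in normal tissue, had intensities of 2101, 2074 and 1711 in the treated arrays, against 1961, 1876 and 1674 in the control arrays. The groups overlapped, and the log2 fold change of 0.09 had a 95% interval of -0.13 to 0.32 (adjusted p = 0.523 from limma). The ID family therefore held 2 genes that rose, 1 that fell and 1 that did not pass.

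Among the receptor-regulated SMADs, SMAD3, which binds DNA directly and mediates many transcriptional responses to TGF-beta, was down-regulated. It had 5009, 5066 and 4003 in the treated arrays, against 6186, 6775 and 6553 in the control arrays. All treated arrays were lower, and replicate 3 was the lowest. The mean was 4693 ± 598 in treated cells and 6505 ± 297 in control cells (SD, n = 3 each). The log2 fold change was -0.48 (standard error 0.10, 95% interval -0.70 to -0.26, adjusted p = 0.00543 from limma), and -0.37 without EC-70124 replicate 3. SMAD3 is also in a list of modified genes that the study drew from these same samples, so that its direction is not independent evidence.

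SMAD2, the close relative of SMAD3 on the TGF-beta and activin branch, had 3852, 3677 and 3426 in the treated arrays, against 3157, 3047 and 3061 in the control arrays on the probe set with the higher mean. There the groups did not overlap, with a log2 fold change of 0.24 (standard error 0.06, 95% interval 0.10 to 0.38, adjusted p = 0.0162 from limma). The second probe set of SMAD2 did not show this. It had 1573, 1319 and 1095 in the treated arrays, against 1528, 1309 and 1395 in the control arrays. These groups overlapped, and its log2 fold change was -0.10 (standard error 0.14, adjusted p = 0.680 from limma over all 33252 probe sets). With the median of both probe sets the log2 fold change of SMAD2 was 0.07 (adjusted p = 0.605 from limma), and its adjusted p was also above the threshold when single arrays were left out, at 0.0580 without EC-70124 replicate 1, 0.0543 without EC-70124 replicate 2, 0.0580 without control replicate 2 and 0.0502 without control replicate 3. The call for SMAD2 thus rested on 1 of its 2 probe sets and was lost without any 1 of these 4 arrays.

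SMAD1, which carries the BMP signal, was higher in treated cells. It had 2734, 2859 and 2488 in the treated arrays, against 2227, 2243 and 2176 in the control arrays, with no overlap. The log2 fold change was 0.28 (standard error 0.07, 95% interval 0.13 to 0.43, adjusted p = 0.0107 from limma), a rise of 21.4%. SMAD4, the partner shared by both branches, had 4641, 4836 and 4057 in the treated arrays, against 4250, 4283 and 4302 in the control arrays. Treated replicate 3 was below the control arrays and the other treated arrays were above them, and the log2 fold change was 0.07 (95% interval -0.10 to 0.24, adjusted p = 0.505 from limma). The remaining receptor-regulated SMADs of the BMP branch did not pass either. SMAD5 had a log2 fold change of -0.04 (95% interval -0.17 to 0.08). SMAD9 had 882, 939 and 515 in the treated arrays, against 815, 869 and 787 in the control arrays, with a log2 fold change of -0.13 (95% interval -0.60 to 0.34).

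Of the inhibitory SMADs, SMAD6, which acts mainly on the BMP branch, fell. Its intensity was 334, 329.97 and 311 in the treated arrays, against 381, 419 and 432 in the control arrays, a log2 fold change of -0.34 (standard error 0.07, 95% interval -0.49 to -0.18, adjusted p = 0.00494 from limma). SMAD7, which blocks both branches, had 309, 328 and 346 in the treated arrays, against 320.3, 299 and 321 in the control arrays. The groups overlapped, and the log2 fold change was 0.06 (95% interval -0.09 to 0.21, adjusted p = 0.515 from limma). Both are dim. Genes of liver, muscle, pancreas and brain, which a breast cancer line is not expected to use, had mean intensities of 105 to 644 on their own probe sets, and the deposited table has no measure of background, so that the part of background in SMAD6 and SMAD7 was not tested. ID2 in the control arrays also lies in this range. Among the pathway genes named below, so do TGFBR3 in the treated arrays, SKIL and GATA3 in the control arrays and HEY2 in both groups. Of the genes set beside ID2 and ID1 by their pattern, ZNF268 in the control arrays and LYPD6 in the treated arrays do as well.

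**Figure D2:**
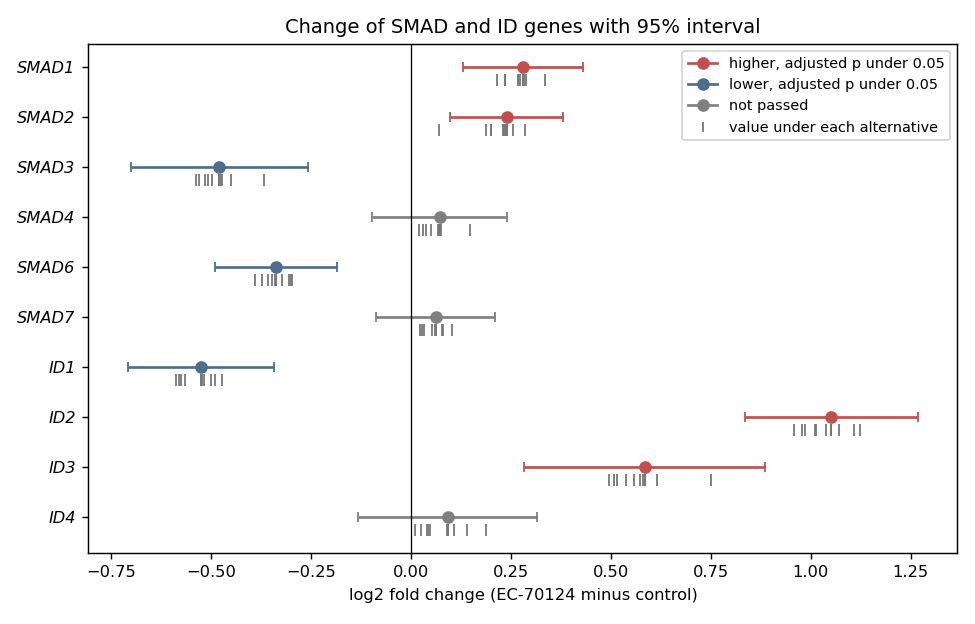
Log2 fold change (EC-70124 minus control, x axis) of the 10 genes (y axis) as points with the 95% interval of limma, and the same value under each processing alternative as ticks. ID2 lies at 1.05 and ID1 at -0.52, and no tick crosses zero.

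In EC-70124 replicate 3, 8 of the 10 genes had the lowest of the 3 treated values and the other 2, ID2 and SMAD7, had the highest. Over all genes replicate 3 was the lowest for 42.1% and the highest for 36.3%. The gap on the log2 scale between replicate 3 and the mean of replicates 1 and 2 was -0.50 for ID3, -0.33 for SMAD3, -0.29 for ID4 and 0.28 for ID2. Without this array 7 of the 10 genes still passed, 4 higher and 3 lower, and the log2 fold change of ID2 was 0.96. Among the control arrays, replicate 3 was the lowest for SMAD1, ID1, ID3 and ID4 and the highest for SMAD4, SMAD6 and SMAD7. A possible difference in handling of the replicate 3 arrays was not tested, since no batch or scan time is given in the sources used here.

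Because ratios within an array do not depend on its overall scale, related genes were set against each other. ID2 over ID1 had the largest shift, with log2 ratios of -1.32, -1.54 and -0.99 in the treated arrays, against -3.01, -2.80 and -2.77 in the control arrays. The shift was 1.58 on the log2 scale. ID1 over ID3 shifted by -1.11, ID4 over ID2 by -0.96, SMAD1 over SMAD3 by 0.76, SMAD3 over SMAD2 by -0.72 and SMAD7 over SMAD6 by 0.40. ID2 over ID3 had -1.59, -1.67 and -0.86 in the treated arrays, against -1.92, -1.79 and -1.82 in the control arrays. Both genes rose, and here treated replicates 1 and 2 were close to the control arrays, so that the shift was 0.47, and 0.21 without EC-70124 replicate 3. Of all single genes 47.6% had no overlap, and the share over gene pairs was not computed. In each of the 7 pairs, which all hold a gene that passed in limma, the treated and control arrays did not overlap. The two-sided exact permutation p was 0.1 for each, the smallest that 3 against 3 arrays allow, and 0.1 after adjustment over the 7 pairs, which share genes. The ratios restate the values of the single genes and are given as a description.

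**Figure D3:**
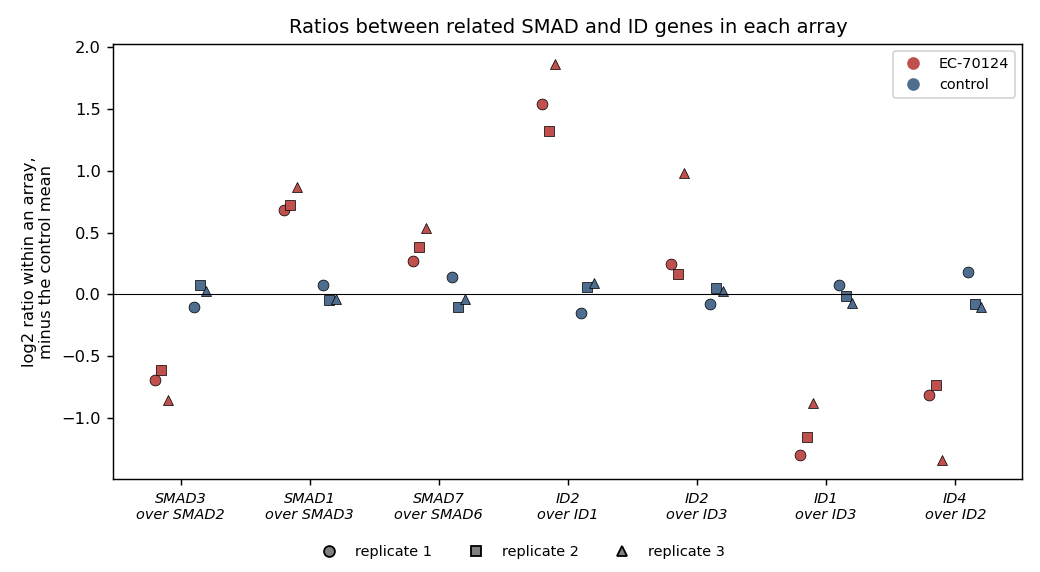
Log2 ratio of 2 genes within each array, minus the mean of the control arrays (y axis), for 7 pairs (x axis), with EC-70124 arrays in red on the left and control arrays in blue on the right of each pair. The treated mean of ID2 over ID1 lies 1.58 above the control arrays and that of ID1 over ID3 lies 1.11 below.

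By Pearson's r over the 6 log2 values, the genes whose pattern was most like that of ID2 were ZNF268 (r = 0.9997), IFI16 (0.9996) and MGME1 (0.9996), and those most like ID1 were LYPD6 (0.99996), CNOT6 (0.999) and EGLN3 (0.998). These points share the treatment, and 1954 genes had an r over 0.95 with ID2 and 939 with ID1, so that the likeness is a description of a shared direction.

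Beside the SMAD and ID genes, 94 other genes of the pathway were measured, of 100 listed, and 29 of them passed (30.9%, against 34.5% of all genes), 11 as higher and 18 as lower. The 13 receptors and co-receptors had 1 higher and 4 lower (38.5%, near the 34.5% of all genes, 19.7% higher and 14.8% lower). TGFBR3, the co-receptor betaglycan, had 518, 516 and 599 in the treated arrays, against 1245, 1339 and 1200 in the control arrays (log2 fold change -1.21, adjusted p = 1.93e-05 from limma). ENG, endoglin, a co-receptor best known from endothelium, fell by 0.42 on the log2 scale (adjusted p = 0.00353 from limma), whereas ACVR2A, a type II activin receptor, rose by 0.46 (adjusted p = 0.000882 from limma). Of 15 BMP and activin ligands and antagonists, 2 were lower (13.3%, against 14.8% lower of all genes). None was higher in limma, also at an unadjusted p under 0.05. The 2 lower genes were both antagonists of activin. FST, follistatin, had a log2 fold change of -0.68, and its relative FSTL3 of -0.44.

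Of 23 partners and regulators of SMAD proteins, 6 were higher and 7 lower (56.5%, against 34.5% of all genes, 19.7% higher and 14.8% lower). SKIL, which encodes the SMAD co-repressor SnoN, had 1084, 1068 and 1068 in the treated arrays, against 620, 606 and 596 in the control arrays, and rose by 0.82 on the log2 scale (adjusted p = 1.66e-05 from limma). The coactivator CREBBP rose by 0.65. NEDD4L, a ubiquitin ligase that acts on activated SMAD2 and SMAD3, fell by 0.59 on the log2 scale. Of 18 target genes of TGF-beta and SMAD3, 2 were higher and 4 were lower (33.3%, near the 34.5% of all genes). FN1, fibronectin, had a mean of 3265 ± 38.4 in treated cells and 7016 ± 276 in control cells (SD, n = 3 each), a log2 fold change of -1.10. TGFBI, a TGF-beta-induced matrix protein, fell by 0.75 on the log2 scale, and SNAI2, a transcription factor of the epithelial-mesenchymal transition (EMT), rose by 0.78. TGFBR3 and FN1 are in the study's list from these samples too. The target genes of this branch that passed held both falls and rises, as did the genes that passed over the whole array.

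Of 13 target genes of the BMP branch other than the SMAD and ID genes, 2 were higher (15.4%). This is below the share of all genes, of which 19.7% were higher and 14.8% lower. In limma none of the 13 was lower, also at an unadjusted p under 0.05. HEY2, a bHLH repressor, rose by 0.74 and GATA3, a luminal transcription factor, by 0.46 (adjusted p = 4.59e-05 and 0.000446 from limma). HES1, which had 2419, 2375 and 1064 in the treated arrays, against 1467, 1697 and 1420 in the control arrays, did not pass, and replicate 3 was again apart from the other treated arrays. Among 10 E proteins and other bHLH partners, through which ID proteins act, only TCF3 passed (10%, against 34.5% of all genes). Its intensity was 2772, 2943 and 2830 in the treated arrays, against 3520, 3821 and 3812 in the control arrays (log2 fold change -0.38, adjusted p = 0.00138 from limma). TCF12 and TCF4, the other E proteins, had log2 fold changes of -0.06 and -0.05 and did not pass.

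**Figure D4:**
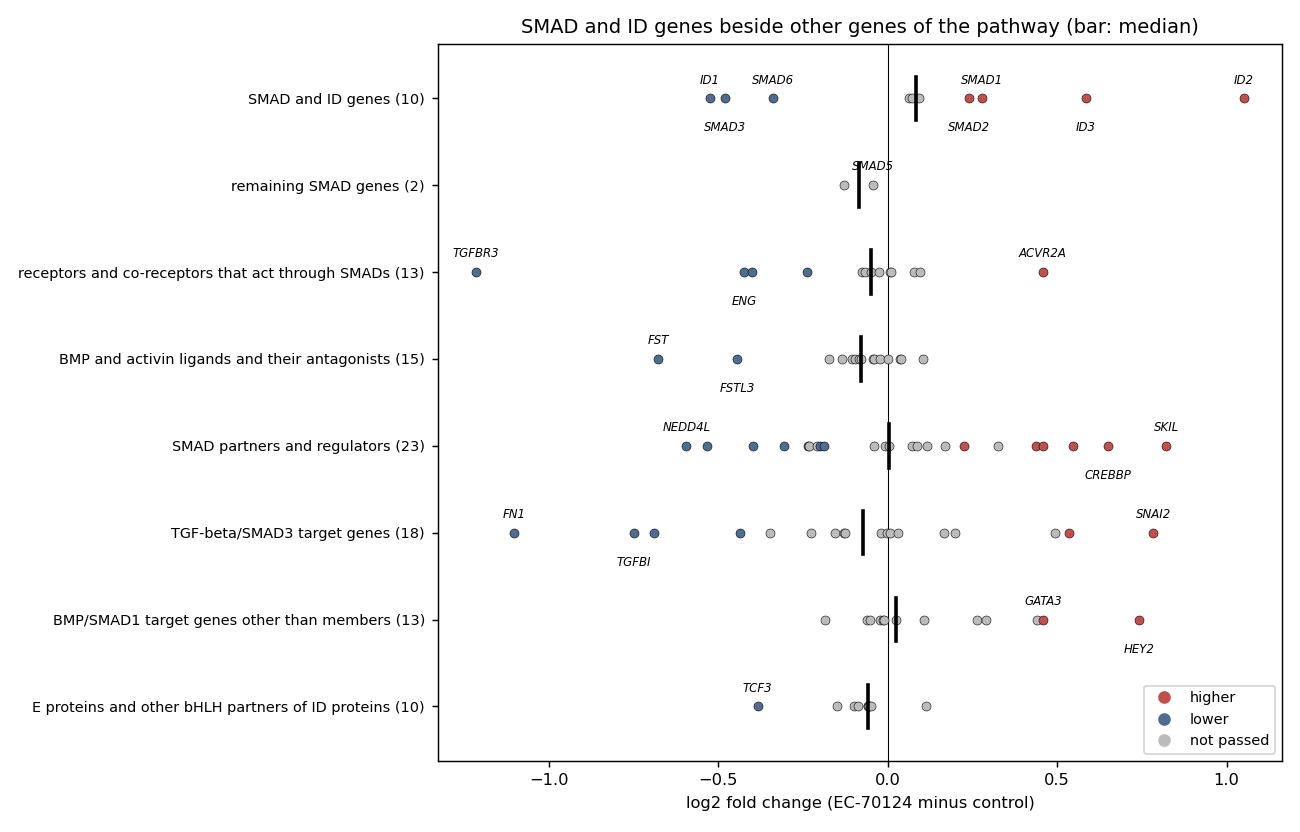
Log2 fold change (EC-70124 minus control, x axis) of the SMAD and ID genes and of the other genes of the pathway by list (y axis, with the count of genes measured), as 1 point for each gene, red or blue where limma's adjusted p was under 0.05, with the median of each list as a bar. ID2 is the highest point of the figure at 1.05 and TGFBR3 the lowest at -1.21.

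Column medians were 451 to 460.1 in the treated arrays and 437 to 444 in the control arrays. Every treated median was thus slightly above every control median. No value of the 10 genes was at the floor of 1. Markers of mesenchymal breast cancer cells were bright, with VIM at 13148 in treated cells and 13827 in control cells. Of 5 leukocyte and 5 endothelial markers none passed in limma (1 at an unadjusted p under 0.05, ITGAM), with summed intensities of 1561 to 1673 (leukocyte) in the treated arrays, against 1453 to 1590 in the control arrays, and of 1466 to 1553 (endothelial) in the treated arrays, against 1479 to 1559 in the control arrays. In RNA of a whole culture, fewer cells that express a gene and less RNA per cell cannot be told apart.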

How the data were processed

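The study's RNA was hybridised to Affymetrix Human Gene ST arrays. In the dChip program the authors scaled the arrays to each other by a rank invariant method and deposited 1 MBEI per probe set, an intensity on a linear scale. Neither the version of dChip nor its background correction is stated in the sources used here. Intensities under 1 were raised to 1 before taking log2. Of 33252 probe sets, 19460 have 1 gene symbol, and each of 18417 genes was read from its brightest such probe set, by the mean of the 6 arrays. EC-70124 was compared with control in limma 3.58.1 (lmFit, then eBayes; R 4.3.3), two-sided, adjusted by Benjamini-Hochberg over all genes. Precision is limited by the number of arrays, with a median standard error of 0.07 for log2 fold changes. In data simulated for this comparison over 18417 genes, 80 of 100 genes changed 1.5-fold and 95 of 100 changed 2-fold were recovered, with 6 unchanged genes called. Only these genes were changed there, a far smaller share than the 34.5% of all genes that passed in the data. The adjusted threshold depends on that share, so that these counts do not give the recovery in the data.

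The 10 genes and the other lists were chosen with earlier results of these data known, from textbook knowledge. Beside the 10 genes, the text names the 3 genes past the threshold with the largest change in each list (or, with none, the lowest p) and the 3 genes most like ID2 and ID1. SMAD9, HES1, TCF12, TCF4 and the markers are outside this rule and were chosen after their values were seen. Of the 100 listed genes, 6 were not analysed here. Promoter sequences came from RefSeq. Alternatives covered normalization, a filter on dim genes, an offset, the choice of probe set, the test, the replicate number as a block and leaving out each array.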

Additional observations from a re-analysis of the deposited data

How the results depend on the processing

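Over 14 alternatives, the 10 genes gave 139 values, none of which turned the direction. Of these, 129 stayed on the same side of the threshold and 10 calls were lost, 6 of them for SMAD2. For the arrays, the study's methods name a t-test as the scoring metric of the gene set analysis and no test per gene. A Welch t-test per gene on log2 values was taken here. Of the 6 losses of SMAD2, 5 are given above, and the other came with this t-test (adjusted p = 0.102). The other losses came from the same test, which has no shared spread and called 3242 genes in all, 19 of the other pathway genes and 2 of the 10 genes (ID2 and ID1) after Benjamini-Hochberg adjustment, and 6422 genes and 6 of the 10 at an unadjusted p under 0.05. Its adjusted p was 0.116 for SMAD1, 0.119 for SMAD3, 0.0557 for SMAD6 and 0.175 for ID3. Leaving out 1 array gave 5172 to 6835 changed genes, 6 or 7 of the 10 genes and 23 to 36 of the other pathway genes. Quantile normalization moved the median log2 fold change of all genes by -0.04. SMAD7 was among the 30% dimmest genes. Alternatives for the 7 ratios were chosen after seeing the data, and none turned a direction. For the 21 other named genes, 288 of 294 values kept side and direction. ENG, FSTL3 and SNAI2 lost the call with the Welch t-test, and CNOT6 lost it without each of 3 single arrays.

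Whether replicate numbers pair the arrays was not settled. Deviations of same-numbered arrays correlated at 0.13, -0.02 and 0.14 over genes. EC-70124 replicate 1 correlated best with control replicate 2 (0.15). EC-70124 replicate 3 correlated best with control replicate 3, against -0.07 with control replicate 1 and -0.10 with control replicate 2. With the replicate number as a block 6183 genes passed, 7 of the 10 genes and 32 of the other pathway genes.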

Other observations

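Markers of cell identity were used to check the label. Of 6 markers of mesenchymal breast cancer cells measured, 3 were lower and 1 was higher in treated cells, against 14.8% lower and 19.7% higher of all genes. The receptor kinase AXL fell by 0.27 on the log2 scale, CD44 by 0.29 and the EMT factor ZEB1 by 0.17, whereas SNAI2 rose as described above. Of 8 luminal and receptor markers 3 were higher (37.5% passed, near the 34.5% of all genes), and none was lower in limma even at an unadjusted p under 0.05. The rises were those of GATA3 by 0.46 on the log2 scale, the keratin gene KRT8 by 0.20 and the cadherin gene CDH1 by 0.19 (limma's adjusted p = 0.0490). CDH1 was dim, with a mean intensity of 178 in treated cells and 156 in control cells, and the part of background in it was not tested. ESR1 had a mean intensity of 208 in treated cells and 225 in control cells and PGR of 158 in treated cells and 166 in control cells, and neither passed. Other genes of this list were brighter. KRT8 had a mean of 7274 in treated cells and 6350 in control cells. ERBB2 had 1515 in treated cells and 1486 in control cells, and FOXA1 had 852 in treated cells and 893 in control cells. ERBB2 and FOXA1 did not pass.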
